A study of Mus musculus with 4 samples.

Results

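The genes described here encode the nuclear-encoded subunits of the mitochondrial respiratory chain and of ATP synthase, together with a few assembly factors and related genes that carry the same kind of name. They were taken by gene name from the probe annotation of mouse expression arrays: Nduf genes, Sdha to Sdhd, Uqcr genes, Cyc1, the Cox4i, Cox5, Cox6, Cox7 and Cox8a genes and the Atp5 genes, without the muscle isoforms Cox6a2, Cox7a1 and Cox8b. Of 90 names that matched, 89 were well above background on at least 1 array, among 30085 genes in all, and these 89 passed that limit on each of the 4 arrays. The exception was Cox7b2, a testis form of a complex IV subunit, which was not well above background on any array. The 89 members fell into 38 complex I names, 4 of complex II, 9 of complex III, 13 of complex IV and 15 of complex V, with 7 complex I assembly factors and 3 other genes. The other genes were Atp5s, now called Dmac2l, Atp5sl, now called Dmac2, and the pseudogene Atp5c1-ps.

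The arrays measured liver RNA of C57BL/6N mice in 4 groups: Pnpla7-/- mice (KO) at 6 weeks, wild-type mice (WT) at 6 weeks, KO mice at 3 weeks and WT mice at 3 weeks. PNPLA7 is a lysophospholipase that breaks down lysophosphatidylcholine, and the series concerns the supply of choline from phosphatidylcholine in the liver. Each group was 1 array, hybridised with RNA pooled in equal amounts from 5 livers, so the spread between animals was not measured and no single comparison has a replicate check. The sex of the mice and the altered part of Pnpla7 are not given in the sources used here.

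The respiratory chain passes electrons from NADH (complex I) and succinate (complex II) through coenzyme Q, complex III and cytochrome c to oxygen at complex IV, and complex V uses the resulting proton gradient to make ATP. All complexes but complex II combine subunits from the mitochondrial genome with nuclear-encoded ones, and hepatocytes are rich in mitochondria. Many of the nuclear genes are known to be driven by the factors NRF1, GABPA, YY1 and the oestrogen-related receptors, with PGC-1alpha as a coactivator.

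Signals are given as processed intensity relative to the 75th percentile of the spots on the same array, control spots apart (relative signal), and ratios are log2 ratios of relative signal. A relative signal compares arrays for 1 probe and not 1 gene with another. The 75th percentile lay between 1124 and 1313 intensity units on the 4 arrays, between 28714 and 30697 of 43020 non-control spots were well above background, and no spot was saturated. The KO array at 6 weeks had 1 of 10 scanner quality measures out of range, and its median coefficient of variation between spots of a probe was 7.31%, against 4.72% to 4.81% on the others. Of 14 hepatocyte markers, 13 passed the background limit everywhere, the exception being Serpina1b on the KO array at 3 weeks, and their summed relative signal was 2154 in KO liver at 6 weeks, 1957 in WT at 6 weeks, 1961 in KO at 3 weeks and 1976 in WT at 3 weeks. The Pnpla7 probe read 4.42 in KO liver and 9.65 in WT liver at 6 weeks, and 6.70 in KO liver and 7.54 in WT liver at 3 weeks; whether this probe lies in the altered part is not known, so it does not check the genotype labels.

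At 6 weeks most respiratory chain genes read slightly higher in KO than in WT liver, and few of them differed much. The median log2 ratio of KO over WT was 0.15 over the 89 members, 74 of them were above 0, and their interquartile range was 0.04 to 0.24. The median over all genes well above background on both arrays was 0.05, and over the 2468 genes with a signal above 10 times the 75th percentile, where most members lie, it was 0.16. Above 0 were 83.1% of the members, 56.5% of all genes and 72.8% of these bright genes. The direction depended on the scaling: the members' median was -0.0049 after quantile normalisation and -0.012 after normexp background correction with quantile normalisation, where that of the bright genes was 0.01 in both. The SD of the members' ratios was 0.19, against 0.62 over all genes and 0.45 over the genes above 10 times the 75th percentile. Differences between repeated spots of the same probe on the array pair gave an SD of 0.12 for a ratio from 1 spot per array, and 35 of 89 members lay within it.

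A single member, Atp5s, was at least 2-fold higher in KO liver at 6 weeks, and none was at least 2-fold lower, where 6.51% of all genes tested passed 2-fold upwards and 4.56% downwards. At 1.5-fold, 2 members were higher (Atp5s and Ndufaf4, background 12.5%) and 1 was lower (Cox6b2, background 10.5%). At 1.2-fold, 17 members were higher and 1 was lower, where 26.1% and 20.4% of all genes passed these limits. As shares of the members, these counts are 19.1% and 1.12%.

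**Figure D1:**
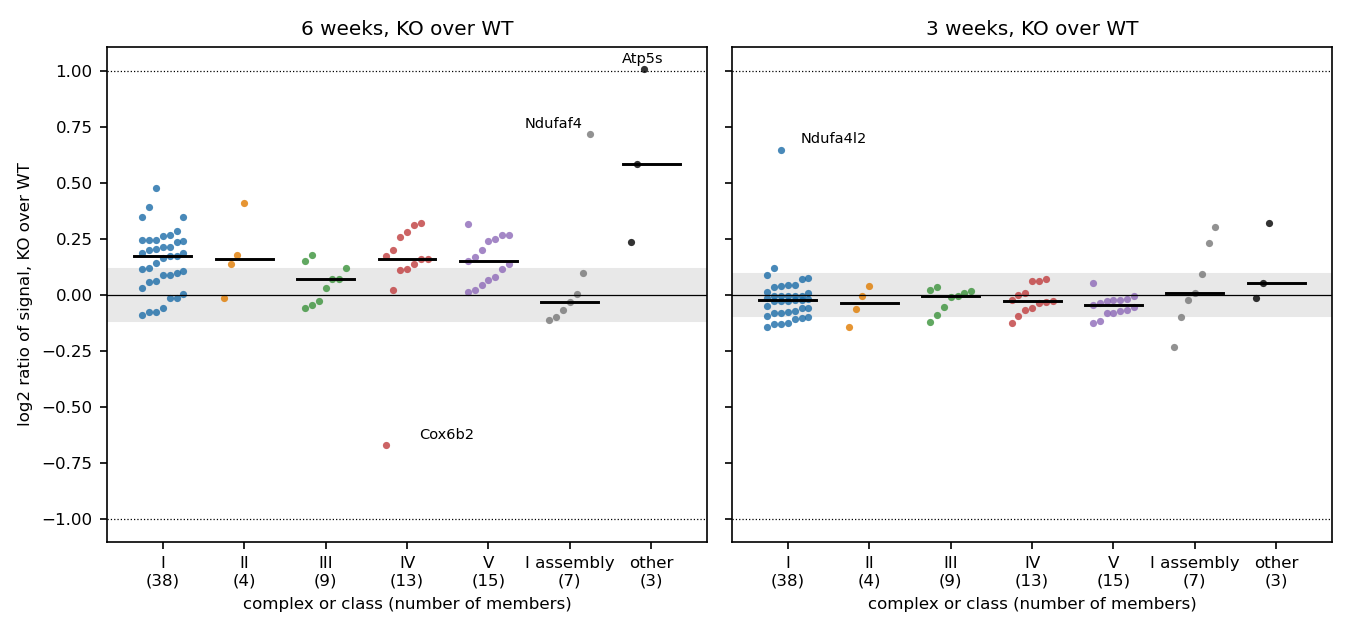
Each point is 1 member, placed by its log2 ratio of relative signal, KO over WT, at 6 weeks (left) and 3 weeks (right), by complex or class with the number of members in brackets. Black bars are medians, dotted lines mark 2-fold, and the grey band is the spread of a ratio between repeated spots of a probe (SD 0.12 at 6 weeks, 0.09 at 3 weeks). At 6 weeks the medians of complexes I, II, IV and V lie between 0.15 and 0.17 under this scaling and move to between -0.07 and 0.05 after quantile normalisation. At 3 weeks the medians of the 5 complexes lie between -0.05 and -0.01.

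Complex I oxidises NADH and pumps protons. Its 38 names had a median of 0.17 at 6 weeks, with 32 above 0 and values between -0.09 (Ndufa11) and 0.48 (Ndufa4l2). Among the core subunits, which form the path of the electrons, Ndufs3 had a ratio of 0.25, Ndufv1 of 0.20, Ndufv2 of 0.19, Ndufs1 and Ndufs7 of 0.12 each, and Ndufs8 of -0.08. The accessory subunit Ndufc2 read 28.6 in KO liver and 21.8 in WT liver at 6 weeks, and 25.2 in KO liver and 27.6 in WT liver at 3 weeks, so that WT at 6 weeks was the low array. Ndufb8, an accessory subunit of the membrane arm that is widely used as a marker of assembled complex I, read 57.2 in KO liver and 45.0 in WT liver at 6 weeks, and 41.0 in KO liver and 45.3 in WT liver at 3 weeks. Ndufb4, another accessory subunit, was the flattest member on its brightest probe, with 39.2 in KO liver and 39.5 in WT liver at 6 weeks and 38.9 in KO liver and 39.4 in WT liver at 3 weeks. The range over the 4 arrays was 1.02-fold for Ndufb4 and 1.39-fold for Ndufb8, and a dimmer Ndufb4 probe that partly overlaps the brightest had a KO over WT ratio of 0.20 at 6 weeks.

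Ndufa4l2 stood apart from the other subunits, because it was at least 1.2-fold higher in KO liver at both ages. It encodes a relative of Ndufa4 that is known to be induced under hypoxia, and Ndufa4 itself, though named for complex I, is now counted with complex IV. Ndufa4l2 read 0.45 in KO liver and 0.32 in WT liver at 6 weeks, and 0.57 in KO liver and 0.36 in WT liver at 3 weeks. Both KO arrays lay above both WT arrays, with a log2 ratio of 0.48 at the older and 0.65 at the younger age, on signals below the array's 75th percentile. Ndufa4 had 37.3 in KO liver and 31.6 in WT liver at 6 weeks, and 29.9 in KO liver and 30.01 in WT liver at 3 weeks. It was thus high on the KO array at 6 weeks and level on the others, with ratios of 0.24 and -0.01.

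Complex II, the succinate dehydrogenase of the citric acid cycle, has 4 subunits. The iron-sulphur subunit Sdhb read 79.7 in KO liver and 60.1 in WT liver at 6 weeks, and 56.7 in KO liver and 59.2 in WT liver at 3 weeks. Only the KO array at 6 weeks was high, with a log2 ratio of 0.41 over WT at 6 weeks, and the gene's 2 probes had nearly the same ratio. The flavoprotein subunit Sdha, which holds the succinate site, read 33.3 in KO liver and 33.6 in WT liver at 6 weeks, and 28.6 in KO liver and 28.7 in WT liver at 3 weeks, so that it followed age and not genotype. The membrane anchors Sdhc and Sdhd had ratios of 0.14 and 0.18 at 6 weeks, and of -0.14 and 0.04 at 3 weeks.

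Complex III, which passes electrons from coenzyme Q to cytochrome c, had the lowest median of the 5 complexes at 6 weeks, 0.07, with 6 of 9 members above 0 and none past 1.2-fold on the brightest probes. This order depended on the probe: on the next brightest probe, which 5 of the 9 have, the median was 0.21. There Uqcr10 had 0.41, Uqcrb 0.38, Uqcrq 0.21, Uqcr11 0.02 and Uqcrh -0.49. The annotation places the dimmer Uqcr11 and Uqcrh probes on another chromosome than the brightest. On the brightest probes the values of complex III ran between -0.06 (Uqcrb) and 0.18 (Uqcrc1), and after quantile normalisation its median was -0.14. The Rieske iron-sulphur protein Uqcrfs1 had a ratio of 0.12 and cytochrome c1, Cyc1, one of 0.03. Uqcrc2, a core subunit, was printed on 10 spots of each array, which gives the best measured ratio among the members. Its mean log2 relative signal was 5.43 ± 0.03 in KO liver and 5.36 ± 0.04 in WT liver at 6 weeks, and 5.32 ± 0.04 in KO liver and 5.31 ± 0.04 in WT liver at 3 weeks (SD over 10 spots of 1 pool each). These SDs cover the spots and not the animals.

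Complex IV, cytochrome c oxidase, had a median of 0.16 at 6 weeks, with 12 of 13 above 0. Cox6a1, the liver form of subunit 6a, was close to level and read 183 in KO liver and 180 in WT liver at 6 weeks, and 172 in KO liver and 175 in WT liver at 3 weeks. Cox7b was the highest of the complex, at a ratio of 0.32, followed by Cox7a2l at 0.31, Cox5b at 0.28 and Cox6c at 0.26. Cox4i1, the general form of subunit 4, had a ratio of 0.16, and Cox4i2, its lung and hypoxia form, one of 0.14 on a relative signal of 0.25 in KO liver and 0.23 in WT liver. Cox8a and Cox7a2 had ratios of 0.12 and 0.17. The exception was Cox6b2, a testis form of subunit 6b, with 0.20 in KO liver and 0.31 in WT liver at 6 weeks, and 0.33 in KO liver and 0.34 in WT liver at 3 weeks. The KO array at 6 weeks was the low one, with a log2 ratio of -0.67, while the general form Cox6b1 had one of 0.16.

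All 15 names of complex V were above 0 at 6 weeks, with a median of 0.15, though after quantile normalisation that median was -0.07. The catalytic beta subunit Atp5b was level, with 123 in KO liver and 122 in WT liver at 6 weeks, and 117 in KO liver and 118 in WT liver at 3 weeks. The alpha subunit Atp5a1 read 74.7 in KO liver and 62.0 in WT liver at 6 weeks, and 58.5 in KO liver and 63.7 in WT liver at 3 weeks. The 2 subunits form 1 ring in the enzyme, and their ratios at 6 weeks were 0.01 for Atp5b and 0.27 for Atp5a1. Atp5o, a stalk subunit, was the highest at 0.32. The 3 genes for the identical mature c-ring protein, Atp5g1, Atp5g2 and Atp5g3, had ratios of 0.12, 0.15 and 0.25 on their brightest probes. A dimmer Atp5g1 probe had 0.49 and a dimmer Atp5g2 probe 0.13, so their order depended on the probe.

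The highest ratios of KO over WT at 6 weeks lay outside the complexes proper. Atp5s, which encodes coupling factor B of ATP synthase, read 0.29 in KO liver and 0.14 in WT liver at 6 weeks, and 0.14 in KO liver and 0.11 in WT liver at 3 weeks. Its log2 ratio of KO over WT was 1.01 at 6 weeks and 0.32 at 3 weeks, so the KO array at 6 weeks stood alone. It lay just past 2-fold: with scaling to the median of each array the ratio was 0.99, and with normexp and quantile normalisation 0.84. Atp5sl, whose product takes part in the assembly of the complex I membrane arm, read 10.6 in KO liver and 7.09 in WT liver at 6 weeks, and 6.46 in KO liver and 6.22 in WT liver at 3 weeks. The 7 complex I assembly factors named Ndufaf had a median of -0.03 at 6 weeks and 3 of 7 above 0, with ratios between -0.11 (Ndufaf2) and 0.72 (Ndufaf4). Ndufaf4 read 6.55 in KO liver and 3.98 in WT liver at 6 weeks, and 6.75 in KO liver and 5.75 in WT liver at 3 weeks, but its 2 probes had ratios of opposite sign at 6 weeks.

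At 3 weeks the respiratory chain genes were nearly level between KO and WT liver. The members' median log2 ratio was -0.02, with 27 of 89 above 0 and an SD of 0.11, against a median of -0.01 and an SD of 0.46 over all genes. The genes above 10 times the 75th percentile had a median of -0.01 and an SD of 0.23. Above 0 were 30.3% of the members, 48.7% of all genes and 48.1% of those bright genes. By complex the medians were -0.02 for I, -0.03 for II, -0.01 for III, -0.03 for IV and -0.05 for V, and 0.01 for the assembly factors. None of the 89 was 2-fold higher or lower, where 2.94% and 2.98% of all genes were. At 1.5-fold, 1 member was higher, Ndufa4l2, and none was lower (background 5.2% and 5.65%). At 1.2-fold, 3 members were higher, namely Ndufa4l2, Atp5s and Ndufaf3, and none was lower, where 9.75% and 12.7% of all genes passed. Of the bright genes, 4.94% and 5.51% passed. The lowest ratio was -0.23, for the assembly factor Ndufaf5. In all, 68 of 89 members lay within the spread of repeated spots, an SD of 0.09.

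Between the ages, 23 members were higher in KO liver at both, 11 were lower at both, 51 were higher at 6 weeks and lower at 3 weeks, and 4 the other way round. As shares these are 25.8%, 12.4%, 57.3% and 4.49%, against 29.9%, 24.4%, 26.3% and 19.4% of all genes and 39.5%, 18.6%, 33.3% and 8.63% of those above 10 times the 75th percentile. The ratios at 6 and 3 weeks share no array, but both ratios of a gene come from the same probe. The points of an age also share the arrays of that age. Over the 89 members the ratios had a Pearson correlation of 0.37 and a Spearman correlation of 0.10. These were 0.21 and 0.15 over all genes, and 0.35 and 0.33 over those above 10 times the 75th percentile. The members at least 1.2-fold higher at both ages were Ndufa4l2 and Atp5s, a share of 2.25%, against 4.52% of all genes. The limma fit with terms for genotype and age used all 4 arrays and leaves 1 residual degree of freedom. It called no member for genotype and none for age, where it also called 0 of 22700 genes for either (0.0%). The lowest adjusted p-value of a member in limma was 0.914 for genotype, shared by 12 members, and 0.506 for age, that of Atp5s. At an unadjusted p under 0.05, limma passed 1 member for genotype, Ndufa4l2, against 4.46% of all genes, and 0 members for age, against 10.2% of all genes.

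**Figure D2:**
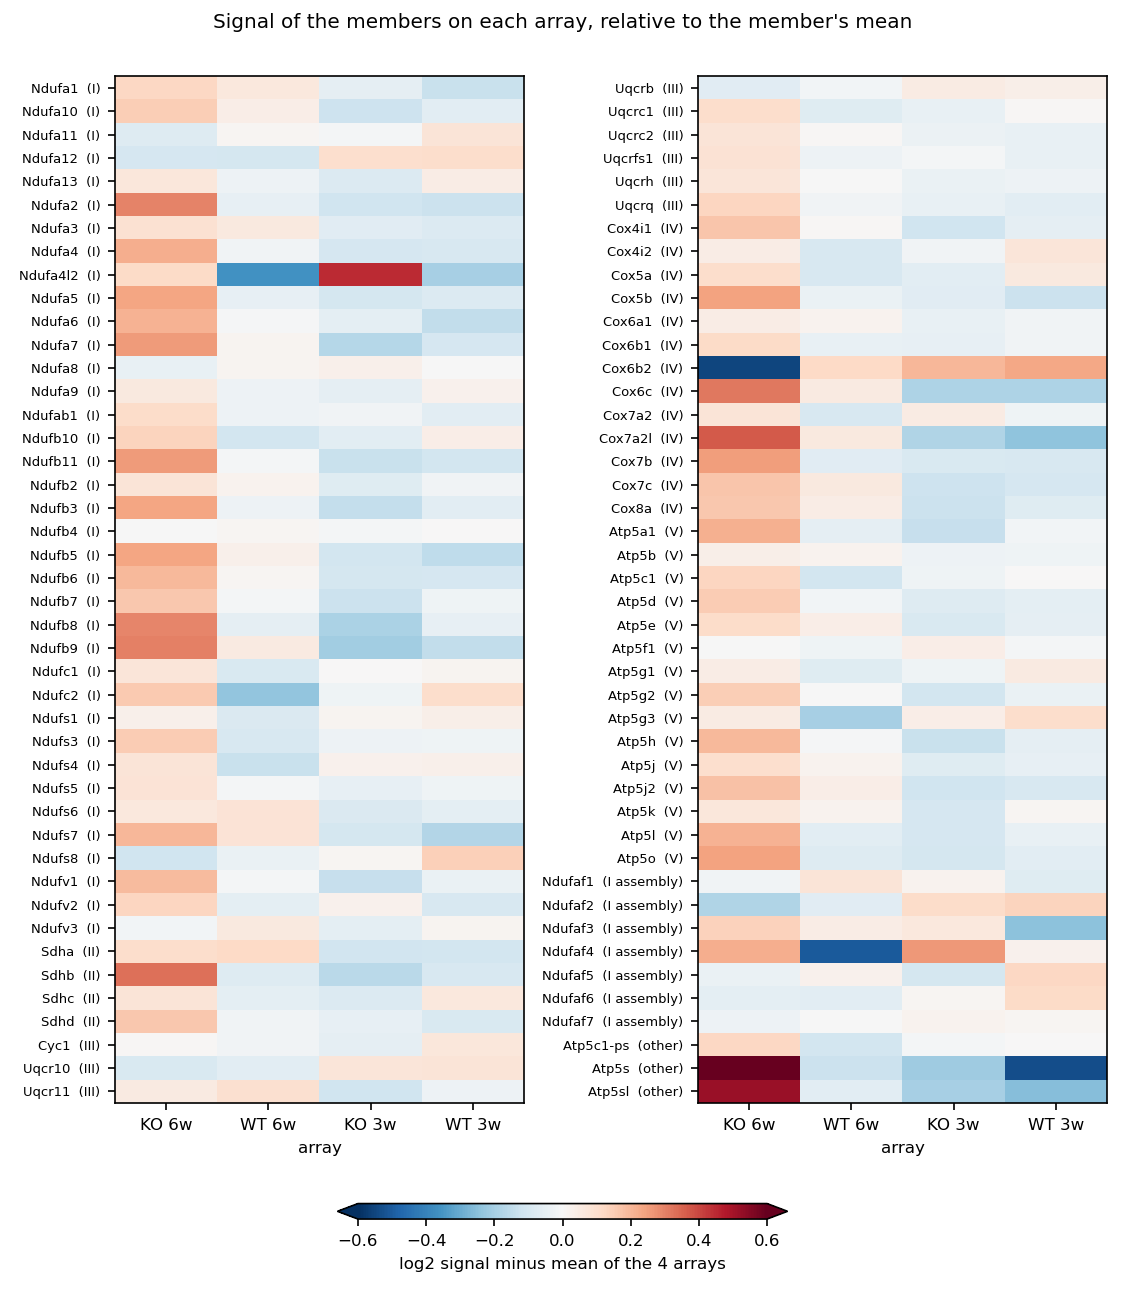
Each row is 1 member with its complex or class (1 member is not drawn), each column 1 array, and the colour is the log2 relative signal minus the mean of the member's 4 values (scale cut at 0.6). Of 89 members, 64 (71.9%) have their highest value on the KO array at 6 weeks, against 39.1% of all genes and 60.6% of genes above 10 times the 75th percentile, and 42 (47.2%) have their lowest value on the KO array at 3 weeks, against 24.7% of all genes and 30.2% of genes above 10 times the 75th percentile. These counts hold under this scaling. After quantile normalisation the members' median was -0.0049 for KO over WT at 6 weeks and -0.017 for 6 over 3 weeks in KO liver.

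Over the 4 arrays together the members varied little. The ratio of a member's highest to its lowest signal had a median of 1.18-fold, against 1.37-fold over all genes and 1.27-fold over those above 10 times the 75th percentile. It stayed within 1.5-fold for 83 of 89 members (93.3%), against 62.7% of all genes and 75.7% of those above 10 times the 75th percentile. The members beyond 1.5-fold were Atp5s at 2.66-fold, Ndufa4l2 at 1.76-fold, Cox6b2 at 1.72-fold, Atp5sl at 1.71-fold, Ndufaf4 at 1.70-fold and Cox7a2l at 1.53-fold. Of these 6, only Cox7a2l and Ndufa4l2 are not a testis form, an assembly factor or one of the 3 other genes. Among the subunits, 76 of 79 stayed within 1.5-fold.

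The next comparison was between the ages within each genotype. In KO liver the members read higher at 6 than at 3 weeks, with a median log2 ratio of 0.17 and 75 of 89 above 0, against 0.08 over all genes and 0.18 over those above 10 times the 75th percentile. After quantile normalisation the members' median was -0.02. In WT liver the median was 0.03, with 53 of 89 above 0, against 0.00 over all genes. Of all genes, 57.9% were above 0 in KO liver and 50.4% in WT liver. Of those above 10 times the 75th percentile, 75.4% and 55.3% were. In KO liver 1 member, Atp5s, was at least 2-fold higher at 6 weeks and none was at least 2-fold lower, where 6.11% and 6.36% of all genes were. In WT liver none passed 2-fold, where 3.68% of all genes were higher and 5.9% lower. At 1.5-fold, 2 members were higher and 1 lower with age in KO liver (background 13.5% and 13.2%), and none in WT liver (background 8.27% and 10.9%). At 1.2-fold, 30 members were higher and 3 lower with age in KO liver (background 31.3% and 22.6%), and 3 were higher and 3 lower in WT liver (background 20.0% and 21.4%). Of the genes above 10 times the 75th percentile, 37.6% were higher and 8.23% lower at this fold in KO liver. In WT liver these shares were 14.8% and 12.7%. The KO comparison shares the KO array at 6 weeks with the genotype comparison at that age, so these values are not independent of one another.

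Cox7a2l, also called SCAF1, is known to link complexes III and IV into supercomplexes, and it was the subunit with the highest age ratio in both genotypes. It read 41.5 at 6 weeks and 28.3 at 3 weeks in KO liver, and 33.4 at 6 weeks and 27.1 at 3 weeks in WT liver. Its log2 ratios of 6 over 3 weeks were 0.55 in KO liver and 0.30 in WT liver, and both arrays at 6 weeks lay above both at 3 weeks. Ndufb9, an accessory complex I subunit, came next among the subunits in KO liver, with 77.6 at 6 weeks and 54.5 at 3 weeks. In WT liver it read 65.3 at 6 weeks and 56.7 at 3 weeks, an age ratio of 0.20 that Ndufs7, Cox6c and Sdha exceeded. Cox6c had age ratios of 0.50 in KO liver and 0.24 in WT liver. Sdhb differed from these, with 0.49 in KO liver and 0.02 in WT liver. Ndufs7 had the highest age ratio of complex I in WT liver, at 0.26, and 0.31 in KO liver.

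Some members were lower at 6 than at 3 weeks. Ndufc2 had an age ratio of -0.34 in WT liver and of 0.18 in KO liver, and Atp5g3, a c-ring gene, had -0.30 in WT liver and 0.01 in KO liver. Ndufa12, an accessory complex I subunit, was lower with age by nearly the same amount in both, with 22.9 at 6 weeks and 26.4 at 3 weeks in KO liver, and 22.9 at 6 weeks and 26.5 at 3 weeks in WT liver. Ndufa4l2 had age ratios of -0.34 in KO liver and -0.17 in WT liver, and Cox6b2 of -0.75 in KO liver and -0.11 in WT liver. The age ratios in KO and in WT liver share no array. Over the 89 members they had a Pearson correlation of 0.60 and a Spearman correlation of 0.61, against 0.45 and 0.43 over all genes. Over the genes above 10 times the 75th percentile these were 0.55 and 0.43. In both genotypes 51 members (57.3%) were above 0, against 37.0% of all genes and 47.1% of those above 10 times the 75th percentile.

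**Figure D3:**
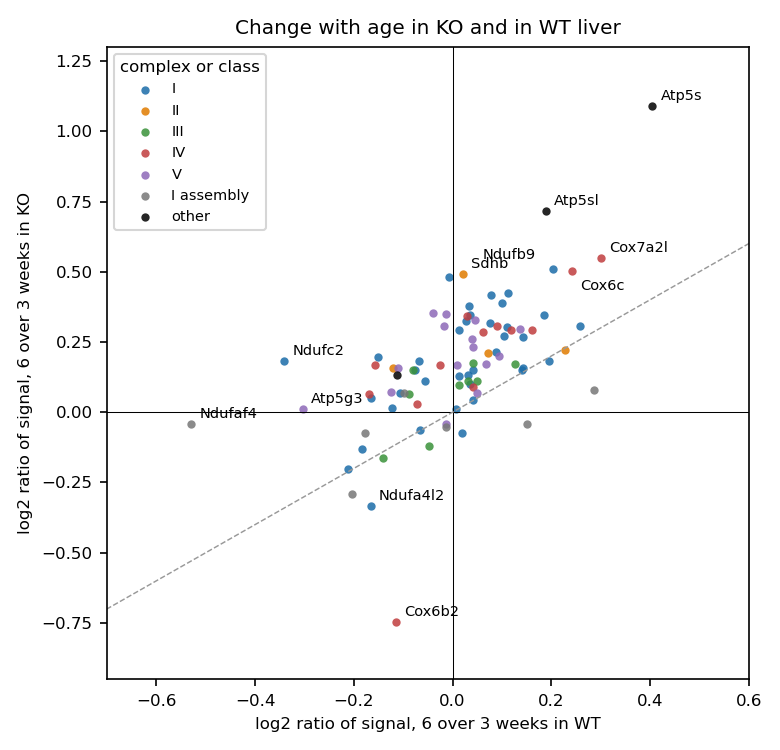
Each point is 1 member, with its log2 ratio of 6 over 3 weeks in KO liver on the vertical axis and in WT liver on the horizontal axis, coloured by complex or class; the dashed line marks equal ratios. Most points lie above the dashed line under this scaling, Atp5s and Atp5sl are highest, and Cox7a2l, Ndufb9 and Cox6c lie above 0.2 on both axes.

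The arrays carry more than 1 probe for 31 of the 89 members, and for 30 of these at least 2 probes were well above background on all arrays. At 3 weeks the KO over WT ratios of a gene's probes spanned 0.06 at the median, and at most 0.40 (Cox7c). At 6 weeks they spanned 0.13 at the median and up to 1.05 (Ndufaf4). For Ndufaf4 and Ndufab1, the acyl carrier protein of complex I and of mitochondrial fatty acid synthesis, the probes lay at least 1.5-fold apart with opposite signs. The brighter Ndufaf4 probe had a ratio of 0.72 and the dimmer one of -0.33, with 2.44 in KO liver and 3.07 in WT liver. The brighter Ndufab1 probe had 0.14 and the dimmer one -0.57. Uqcrh, the complex III hinge protein, had 0.07 on its brighter probe and -0.49 on the dimmer one, which the annotation places on another chromosome than its brighter one.

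Probes that overlap read almost the same stretch of the transcript. Of 4 pairs among the members that share at least 40 bases, that of Atp5l is not shown. Its ratios of KO over WT at 6 weeks were 0.27 and 0.26. The starts of the other 3 pairs are shown here, whose ratios agreed in Cox7a2l and not in Uqcr10 and Uqcrb. Each is the start of a 60-base probe, 30 bases long, 5′ to 3′, with the bases that both printed starts share in capitals; positions of the whole probe are in mouse build mm9, on the minus strand. The annotation does not say whether they lie in a coding or untranslated part. The Cox7a2l starts share their end and beginning over too short a stretch to be marked.
Uqcr10, brighter probe, chr11:4601979-4602038: cagactcACTTCTGCTGTGTTTGAGTACAG
Uqcr10, dimmer probe, chr11:4601972-4602031: ACTTCTGCTGTGTTTGAGTACAGctgtcag
Uqcrb, brighter probe, chr13:67001654-67001713: AGGAGAGAGAAGAGTGGGCaaagaagtgat
Uqcrb, dimmer probe, chr13:67001665-67001724: tcgggaaagaaAGGAGAGAGAAGAGTGGGC
Cox7a2l, brighter probe, chr17:83901272-83901331: cctttaataatgctgtggctttacgttatg
Cox7a2l, dimmer probe, chr17:83901291-83901350: cagctgtgtcaggacttctcctttaataat

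The Uqcr10 probes share 53 of 60 bases. The brighter one read 37.4 in KO liver and 38.1 in WT liver at 6 weeks, and 41.8 in KO liver and 42.0 in WT liver at 3 weeks. The dimmer one read 40.9 in KO liver and 30.7 in WT liver at 6 weeks, and 34.1 in KO liver and 33.8 in WT liver at 3 weeks. Their KO over WT ratios were thus -0.03 and 0.41 at 6 weeks, -0.01 and 0.01 at 3 weeks, and their ratios of 6 over 3 weeks in WT liver were both -0.14. The Uqcrb probes share 49 bases and behaved alike, with -0.06 and 0.38 at 6 weeks and 0.02 and 0.01 at 3 weeks. The Cox7a2l probes share 41 bases and had 0.31 and 0.32 at 6 weeks. In each discordant pair the KO array at 6 weeks was the one on which the probes disagreed.

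In all, 112 pairs of bright probes, in 107 genes, overlap by at least 40 bases. The absolute difference between their 2 log2 ratios of KO over WT had a median of 0.06 at 6 weeks and 0.03 at 3 weeks. Its 95th percentile was 0.38 at 6 weeks and 0.11 at 3 weeks. For 6 over 3 weeks it was 0.40 in KO liver and 0.14 in WT liver. The 2 comparisons that use the KO array at 6 weeks were therefore the less precise ones, and most members' ratios at 6 weeks, with an interquartile range of 0.04 to 0.24, lay inside that 95th percentile.

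**Figure D4:**
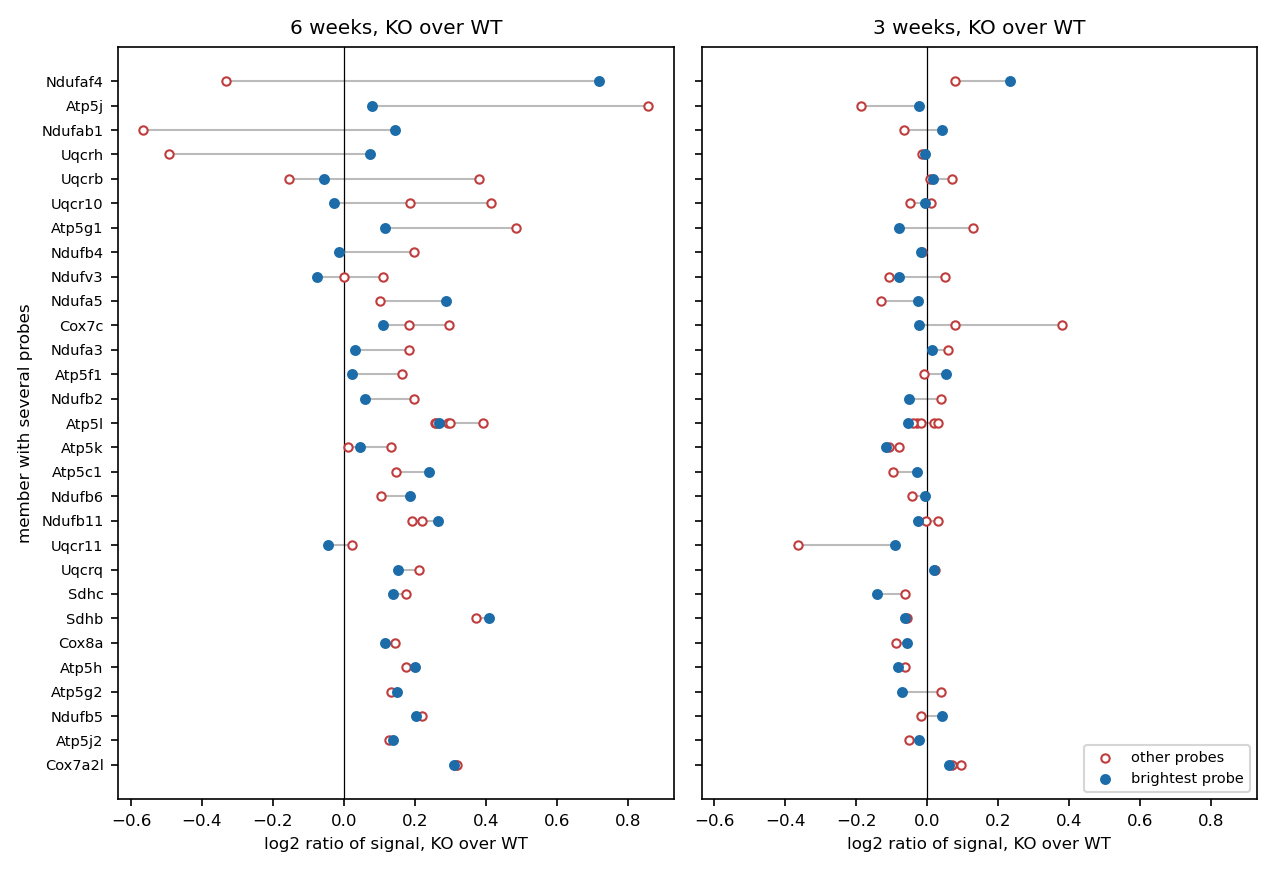
Each row is 1 of 30 members with at least 2 probes well above background on all arrays (1 is not drawn), and each point the log2 ratio of KO over WT from 1 probe at 6 weeks (left) and 3 weeks (right), with the brightest probe filled and lines joining the lowest and highest. Rows are sorted by the gap at 6 weeks, widest at Ndufaf4 (1.05) and narrowest at Cox7a2l; the median gap is 0.13 at 6 weeks and 0.06 at 3 weeks.

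Other genes of oxidative metabolism were set beside the members. The 13 subunits encoded by the mitochondrial genome had a median of 0.17 at 6 weeks, with 11 above 0, and of 0.01 at 3 weeks, close to the nuclear-encoded ones at both ages. Within them ND5, a proton-pumping subunit of complex I, was highest, with 49.6 in KO liver and 32.0 in WT liver at 6 weeks, and 39.99 in KO liver and 35.9 in WT liver at 3 weeks. ND6, another complex I subunit, was lowest, with 0.14 in KO liver and 0.23 in WT liver at 6 weeks, a log2 ratio of -0.68, and 0.14 in KO liver and 0.16 in WT liver at 3 weeks. The citric acid cycle enzymes (14 genes) had medians of 0.17 at 6 weeks and 0.03 at 3 weeks, the assembly factors of complexes II to V 0.11 and 0.05, and the mitochondrial ribosomal proteins (76 genes) 0.04 and 0.02. The cytosolic ribosomal proteins, which are also bright, had 0.23 and 0.05. Fatty acid oxidation genes were on the other side at 6 weeks, at -0.10, with 7 of 24 above 0, where 56.5% of all genes were. Of the 24, Ehhadh and Acaa1b, peroxisomal enzymes, were at least 2-fold lower in KO liver (background 4.56%).

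**Figure D5:**
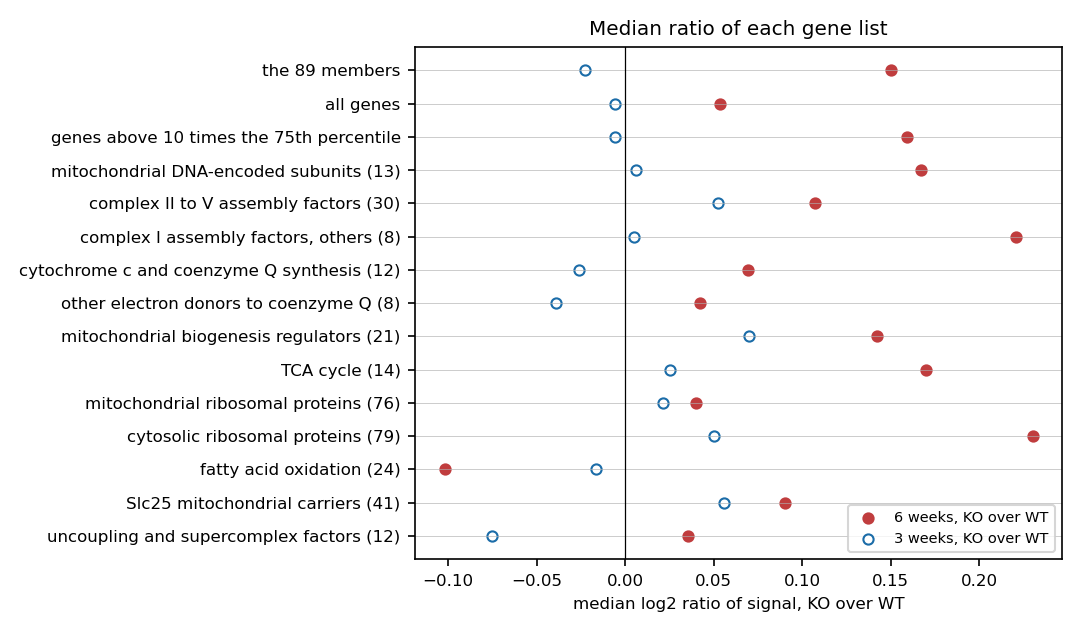
Median log2 ratio of KO over WT for the members, for all genes, for bright genes and for lists of related genes (number of genes well above background on both arrays at 6 weeks in brackets), at 6 weeks (filled) and 3 weeks (open). At 6 weeks the members (0.15) lie next to the bright genes (0.16) and the mitochondrially encoded subunits (0.17), and fatty acid oxidation genes lie at -0.10; at 3 weeks every median lies between -0.08 and 0.07.

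Among 21 regulators of mitochondrial biogenesis, 2 passed 2-fold upwards in KO liver at 6 weeks and 1 downwards, and none passed 2-fold at 3 weeks. Of all genes, 6.51% and 4.56% passed at 6 weeks and 2.94% and 2.98% at 3 weeks, so these counts are near the background. Ppargc1a, the coactivator PGC-1alpha, read 4.42 in KO liver and 1.86 in WT liver at 6 weeks, and 3.99 in KO liver and 2.02 in WT liver at 3 weeks. Both KO arrays lay above both WT arrays, with log2 ratios of 1.25 and 0.98. Esrrg, an oestrogen-related receptor, had 0.21 in KO liver and 0.08 in WT liver at 6 weeks, and Ppargc1b had 0.02 in KO liver and 0.08 in WT liver at 6 weeks. Nrf1 and Gabpa, the factors that bind many respiratory chain promoters, had ratios of 0.24 and 0.12 at 6 weeks and of 0.08 and 0.07 at 3 weeks. Esrra had 0.53 and 0.10, and Tfam, the activator of mitochondrial DNA transcription, 0.10 and -0.09.

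Of the 3 muscle isoforms kept out of the members, Cox6a2 and Cox8b had far larger ratios than any member, and Cox7a1 did not. Cox6a2, the heart and skeletal muscle form of subunit 6a, read 3.84 in KO liver and 0.06 in WT liver at 6 weeks, and 3.68 in KO liver and 0.07 in WT liver at 3 weeks. Cox8b read 1.23 in KO liver and 0.03 in WT liver at 6 weeks, and 2.04 in KO liver and 0.19 in WT liver at 3 weeks. Cox7a1 had 2.45 in KO liver and 3.24 in WT liver at 6 weeks, and 4.07 in KO liver and 2.72 in WT liver at 3 weeks. Skeletal muscle markers moved with the genotype: 27 of 29 passed 2-fold upwards in KO liver at 6 weeks (background 6.51%) and 29 of 29 at 3 weeks (background 2.94%). Their summed relative signal was 62.9 in KO liver and 4.34 in WT liver at 6 weeks, and 90.8 in KO liver and 2.92 in WT liver at 3 weeks. All 29 were well above background on both KO arrays, while 11 were not in WT liver at 6 weeks and 17 were not in WT liver at 3 weeks. Their part in the members' ratios was not tested.

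Markers of other liver cells were measured as well. Their median ratios of KO over WT at 6 weeks were -0.38 for stellate, -0.27 for endothelial and -0.19 for lymphocyte markers. They were 0.11 for neutrophil and 0.10 for cholangiocyte markers. The 12 macrophage and Kupffer cell markers had a median of -0.82 at 6 weeks, with 3 at least 2-fold lower (background 4.56%). None of them was above 0, where 56.5% of all genes were. Their summed relative signal was 49.3 in KO liver and 87.9 in WT liver at 6 weeks, and 90.6 in KO liver and 98.5 in WT liver at 3 weeks. Erythroid markers summed to 14.4 at 6 weeks and 200.0 at 3 weeks in KO liver, and to 16.8 at 6 weeks and 214 at 3 weeks in WT liver. Globin genes made up most of these sums. Of the 9 markers, 6 were at least 2-fold lower with age in KO liver and 8 in WT liver (background 6.36% and 5.9%). Klf1 went the other way in KO liver, with 0.31 at 6 weeks and 0.10 at 3 weeks. In whole-liver RNA, fewer cells of a type and less RNA per cell cannot be told apart, and the part of these markers in the members' ratios was not tested.

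The promoters of the members were searched for the motifs of NRF1, GABPA, YY1 and the oestrogen-related receptors. RefSeq windows of 300 bases, running 250 bases upstream to 50 bases downstream of the start in build GRCm38.p6, were matched by symbol to 73 of the 89 members. Among those without an entry were Atp5a1, Atp5c1-ps, Cox4i1, Cox4i2, Cox6c, Cyc1, Ndufa2, Ndufa4l2, Ndufaf6, Ndufb9, Ndufs1, Sdhc, Uqcrb, Uqcrc2 and Uqcrq. The letters of the core of the NRF1 motif, GCGCANGCG on either strand, were found for 22 of 73 members (30.1%), against 7.03% of all genes and 6.25% of all windows. Those of the YY1 motif, AAGATGGCG on either strand, were found for 8 (11.0%), against 1.64% of all genes, those of the GABPA motif, CCGGAAGTG on either strand, for 2 (2.74%), against 2.25%, and those of the oestrogen-related receptor motif, TCAAGGTCA on either strand, for 2 (2.74%), against 0.466%. By complex, NRF1 letters were in the windows of 8 of 33 complex I members, 2 of 3 of complex II, 2 of 5 of complex III, 1 of 10 of complex IV and 7 of 14 of complex V.

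The median KO over WT ratio at 6 weeks was 0.16 for members with the NRF1 letters and 0.14 for those without, and at 3 weeks it was -0.04 and -0.01. For 6 over 3 weeks in KO liver the medians were 0.16 with and 0.17 without. The 250 bases upstream of the start are shown for Atp5h, Ndufb4 and Cox7a2l. Atp5h has the letters once and a 6-week ratio of 0.20. Ndufb4 has the letters 3 times and, on its brightest probe, the flattest profile of the members. A dimmer Ndufb4 probe had a KO over WT ratio of 0.20 at 6 weeks. Cox7a2l has none of the 4 motifs and the highest age ratios of any subunit. Capitals mark the NRF1 letters, all on the strand of the gene.
Atp5h, chr11:115419920-115420169, minus strand: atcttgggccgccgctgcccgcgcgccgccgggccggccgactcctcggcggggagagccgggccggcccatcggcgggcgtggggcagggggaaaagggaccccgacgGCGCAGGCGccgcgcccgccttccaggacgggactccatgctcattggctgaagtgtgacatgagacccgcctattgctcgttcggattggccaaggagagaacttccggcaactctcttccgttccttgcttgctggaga
Ndufb4, chr16:37654369-37654618, minus strand: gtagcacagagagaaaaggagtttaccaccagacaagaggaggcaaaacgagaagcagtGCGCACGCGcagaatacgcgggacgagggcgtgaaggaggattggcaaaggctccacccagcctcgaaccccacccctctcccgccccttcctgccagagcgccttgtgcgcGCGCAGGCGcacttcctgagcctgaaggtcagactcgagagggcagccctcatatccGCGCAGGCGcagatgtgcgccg
Cox7a2l, chr17:83514334-83514583, minus strand: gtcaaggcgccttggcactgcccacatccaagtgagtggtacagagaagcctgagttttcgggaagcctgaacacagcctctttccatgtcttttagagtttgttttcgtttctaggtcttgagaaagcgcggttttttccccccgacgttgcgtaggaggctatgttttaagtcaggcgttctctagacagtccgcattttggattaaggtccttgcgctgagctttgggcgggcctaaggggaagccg

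Atp5h, a peripheral stalk subunit of complex V, read 69.8 in KO liver and 60.7 in WT liver at 6 weeks, and 55.5 in KO liver and 58.8 in WT liver at 3 weeks. The KO array at 6 weeks was the high one, as for most members. A match is only a description of the letters in these windows and says nothing of whether a factor binds there.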

How the data were processed

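Equal amounts of liver RNA from 5 mice made up the pool for each group, and the 4 pools were hybridised, with Cy3 as the single dye, to Agilent arrays of 1 slide, according to the series' design text, the labels and the headers. The software, per the submitters' processing notes, was Agilent Feature Extraction 11.5.1.1. Per the file headers, the authors' deposited intensity of a spot is net of background and detrended. The flags used to drop spots are deposited as other values, either 0 or 1. The authors' table divides this intensity by the 75th percentile of its array. Probe positions are in mm9.

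Here each spot's processed intensity was likewise divided by that percentile and converted to log2. Outlier spots (189 to 252 per array) were dropped, spots of a probe averaged, and a gene read from its brightest probe. Genes well above background on neither array of a pair were left out of that pair. With 1 pool per group a single comparison has no test, so ratios were counted at folds of 2, 1.5 and 1.2. limma 3.58.1 in R 4.3.3, with Benjamini-Hochberg adjustment over all genes, was tested on simulated data first. Spot error came from 274 probes printed on several spots. RefSeq matched 84 members by accession and 5 by symbol. Python 3.11.15 was used otherwise.

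The members, lists and rules were chosen with earlier results of these data known. Named with their values were members past 2-fold, members 1.5-fold apart in 1 direction at both ages, the highest and lowest of each complex in each comparison, isoform sets, and members with disagreeing probes. Core subunits, Ndufa12, Ndufb4, Ndufb9, Uqcrc2, Cox6c, Cox5b, Cox7c, Uqcrh, Atp5h and Atp5sl were added after their values were seen. Alternatives were other normalisations, filters, probe rules and folds. Lists of fat, heart, neutrophil, lymphocyte, endothelial, stellate, cholangiocyte and kidney markers and of further mitochondrial genes were also measured. The values of 1 member are not reported here by name, though it is in the counts and medians.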

Additional observations from a re-analysis of the deposited data

Results flagged for a closer look

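For some members the 2 comparisons of the same kind had opposite signs, each by more than the spread of repeated spots. These differences were not tested, since each group is 1 array. The spread used here is 1 SD. At 6 weeks every KO over WT ratio listed but that of Ndufc2 lay inside the 95th percentile for overlapping probes, 0.38. At 3 weeks some lay beyond theirs, 0.11. The log2 ratio of KO over WT at 6 weeks and at 3 weeks was 0.27 and -0.12 for Atp5a1, 0.35 and -0.14 for Ndufb8, and 0.39 and -0.13 for Ndufc2. It was 0.20 and -0.12 for Cox5a, 0.14 and -0.10 for Cox4i2, and 0.14 and -0.14 for Sdhc. It was 0.25 and -0.10 for Ndufb10, 0.17 and -0.11 for Ndufb7, and 0.20 and -0.10 for Ndufv1. The log2 ratio of 6 over 3 weeks in KO and in WT liver was 0.18 and -0.34 for Ndufc2, 0.17 and -0.16 for Cox5a, 0.16 and -0.12 for Sdhc, 0.13 and -0.11 for the pseudogene Atp5c1-ps, 0.16 and -0.11 for Atp5c1, and 0.20 and -0.15 for Ndufb10. In each case the KO array at 6 weeks takes part in the positive ratio. These values are from the brightest probes. A dimmer Sdhc probe had -0.06 for KO over WT at 3 weeks. For 6 over 3 weeks it had 0.31 in KO liver and 0.08 in WT liver, so the signs were not opposite. A dimmer Atp5c1 probe had 0.19 in KO liver and -0.05 in WT liver for 6 over 3 weeks.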

How the results depend on the processing

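No paired analysis was possible because each group is 1 array and the labels give no replicate numbers. The members' median of KO over WT at 6 weeks, 0.15 as reported, was -0.0049 after quantile normalisation and -0.012 after normexp with quantile normalisation; for 6 over 3 weeks in KO liver, 0.17 as reported, these were -0.017 and -0.017. The bright genes lost the same shift under these settings, and the cause was not tested. By complex, the 6-week medians after quantile normalisation were 0.03 for I, 0.01 for II, -0.14 for III, 0.05 for IV and -0.07 for V. The count of members at least 2-fold higher in KO liver at 6 weeks was 1 as reported. It was 0 after normexp with quantile normalisation, with median scaling and at 3-fold, and 2 at 1.5-fold. With the next brightest probe (31 members, chosen after seeing the data) it was 0. That setting cannot decide this, because Atp5s, the member counted, has 1 probe and is not among the 31. At 1.5-fold, 1 member was lower at 6 weeks and 1 higher at 3 weeks. For 6 over 3 weeks in KO liver the count of 1, again Atp5s, was 0 after normexp with quantile normalisation and at 3-fold. At 1.5-fold, 2 members were higher and 1 lower. With the next brightest probe the count was 0, but Atp5s is not in that set. The limma fit called 0 members under every alternative run. Leaving out an array was not run, since it would empty a group. The number of arrays, 4, limits the precision, and the array of KO liver at 6 weeks had the widest spread between spots.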

Other observations

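Outside the respiratory chain itself, several genes that feed or tune it differed in KO liver at 6 weeks. Prodh, which passes electrons from proline to coenzyme Q, read 52.9 in KO liver and 24.8 in WT liver at 6 weeks, and 19.7 in KO liver and 31.4 in WT liver at 3 weeks, so the 2 ages had opposite signs. Coa6, a copper-related assembly factor of complex IV, read 8.84 in KO liver and 3.62 in WT liver at 6 weeks, and 5.53 in KO liver and 5.74 in WT liver at 3 weeks. Slc25a4, the heart and muscle form of the ADP/ATP carrier, read 9.23 in KO liver and 3.21 in WT liver at 6 weeks, and 13.9 in KO liver and 8.09 in WT liver at 3 weeks. Among the mitochondrially encoded subunits, COX1 stood apart with age, reading 121 at 6 weeks and 190.0 at 3 weeks in KO liver, and 89.3 at 6 weeks and 188 at 3 weeks in WT liver, while COX2 and COX3 had age ratios between 0.05 and 0.13. These genes were picked after their values were seen, each rests on 1 array per group, and no cause was tested.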
